A study of Mus musculus with 4 samples.

Results

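Levels of 10 genes that fasten basal keratinocytes to the basement membrane were read in single cells of mouse back-skin epidermis. The 10 genes were *Itga6*, *Itgb4*, *Col17a1*, *Dst*, *Plec*, *Cd151*, *Lamb3*, *Itgb1*, *Itga3* and *Itga2*. They were taken by name from the 24378 gene rows of the tables, without use of any measured value, and each has its own row in the 4 libraries. All animals were 57-day-old female Ivl-CreERT2/R26-tdTomato mice, given tamoxifen at 10 µg per g by intraperitoneal injection 2 days before the cells were taken, as the labels give it, while the methods of the study give another dose. In this strain a tamoxifen-activated Cre under the involucrin promoter switches on a red reporter, so that Tom+ cells are those that had expressed involucrin, a differentiation gene, or descend from such cells. Live cells positive for ITGA6 (CD49f) and LY6A and negative for CD34 were sorted as basal interfollicular epidermis, into traced (Tom+) and non-traced (Tom−) cells, with 2 libraries of each. The material came from 2 mice, and the labels do not say which library came from which mouse. P-values between the sorts therefore measure the spread between libraries, which may be technical. For comparisons within libraries they measure how far the difference varies from library to library, which may be technical too. Each library is 1 microfluidic chip of 96 wells, and each sort was on its own chips, so the sort and the chip cannot be told apart.

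Hemidesmosomes are the rivet-like junctions by which basal keratinocytes hold to the underlying matrix. Integrin α6β4, made from *Itga6* and *Itgb4*, spans the membrane with collagen XVII (*Col17a1*) and the tetraspanin CD151. Inside the cell, plectin (*Plec*) and the epithelial form of dystonin (*Dst*, the gene of BPAG1) tie the complex to keratin filaments, and outside the cell α6β4 binds laminin-332, whose β3 chain is encoded by *Lamb3*. The β1 integrins, α3β1 (*Itga3* and *Itgb1*), a laminin-332 receptor, and α2β1 (*Itga2* and *Itgb1*), a collagen receptor, are linked to actin instead. Keratinocytes that leave the basal layer give up these contacts and switch from keratins 5 and 14 to keratins 1 and 10.

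In the RefSeq annotation of GRCm38.p6 the genes lie on 8 chromosomes, with *Itga3* and *Itgb4* both on chromosome 11 and *Dst* and *Lamb3* both on chromosome 1. The libraries count the 5′ ends of transcripts, so a longer gene gives no more counts per molecule. The start sites used here are those of RefSeq, and where the counted molecules begin was not examined. Windows from 250 bases before to 50 bases after the start were held for 7 of the 10 genes, 11 windows in all. Those of *Lamb3* and *Col17a1*, which were called lower in *Krt10*-positive cells, of *Itga3*, which was left out of that test by its filter and called lower with a filter set later, and of *Dst*, which did not pass the test there, are shown 5′ to 3′ on the gene's strand, for *Itga3* the upstream one of 2. Capitals mark matches on either strand. The motifs searched were TGANTCA, which AP-1 factors bind, and GGAATG of the TEAD factors. GCCNNNGGC of AP-2 was searched as well. So was GGGCGG of the Sp and Klf factors. The last was TATAAA, the TATA box.
Lamb3, chr1:193301744-193302043, plus strand: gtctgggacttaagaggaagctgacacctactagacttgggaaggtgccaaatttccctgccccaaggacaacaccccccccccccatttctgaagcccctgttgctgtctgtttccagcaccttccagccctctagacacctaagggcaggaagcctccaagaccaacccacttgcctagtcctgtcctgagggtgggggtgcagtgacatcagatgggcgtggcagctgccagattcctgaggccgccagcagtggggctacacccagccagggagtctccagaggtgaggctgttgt
Lamb3, chr1:193301993-193302292, plus strand: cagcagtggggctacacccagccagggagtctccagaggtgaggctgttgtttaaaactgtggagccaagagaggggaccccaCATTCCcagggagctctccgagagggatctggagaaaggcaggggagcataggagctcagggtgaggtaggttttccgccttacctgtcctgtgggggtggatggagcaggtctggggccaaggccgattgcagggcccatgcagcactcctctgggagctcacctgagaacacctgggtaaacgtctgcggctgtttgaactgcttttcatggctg
Itga3, chr11:95076665-95076964, minus strand: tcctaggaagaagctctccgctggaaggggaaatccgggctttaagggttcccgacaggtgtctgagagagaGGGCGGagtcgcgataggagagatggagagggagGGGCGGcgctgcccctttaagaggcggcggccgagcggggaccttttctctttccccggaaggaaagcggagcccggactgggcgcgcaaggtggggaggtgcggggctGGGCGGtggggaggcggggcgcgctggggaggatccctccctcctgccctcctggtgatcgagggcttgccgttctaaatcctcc
Col17a1, chr19:47691993-47692292, minus strand: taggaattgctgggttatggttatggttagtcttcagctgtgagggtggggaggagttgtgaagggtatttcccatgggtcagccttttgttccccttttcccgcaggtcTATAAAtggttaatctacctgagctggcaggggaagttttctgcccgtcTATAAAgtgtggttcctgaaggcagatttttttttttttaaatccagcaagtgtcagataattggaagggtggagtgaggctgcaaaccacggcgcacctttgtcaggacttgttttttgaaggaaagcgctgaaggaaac
Dst, chr1:34011345-34011644, plus strand: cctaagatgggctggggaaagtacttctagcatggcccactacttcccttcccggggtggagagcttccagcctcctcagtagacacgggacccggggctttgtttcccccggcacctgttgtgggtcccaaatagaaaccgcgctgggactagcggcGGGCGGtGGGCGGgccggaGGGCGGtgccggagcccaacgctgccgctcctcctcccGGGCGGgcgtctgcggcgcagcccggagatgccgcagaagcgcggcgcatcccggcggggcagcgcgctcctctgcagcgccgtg
Dst, chr1:34160010-34160309, plus strand: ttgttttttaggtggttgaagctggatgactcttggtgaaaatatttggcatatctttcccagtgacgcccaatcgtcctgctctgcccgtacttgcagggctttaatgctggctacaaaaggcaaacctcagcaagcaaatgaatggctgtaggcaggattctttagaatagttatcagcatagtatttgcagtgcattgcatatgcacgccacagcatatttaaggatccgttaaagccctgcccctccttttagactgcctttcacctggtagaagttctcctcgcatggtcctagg
The window of *Col17a1* holds 2 TATAAA matches and none of the other motifs. The upstream window of *Itga3* holds 3 GGGCGG matches. The 2 *Lamb3* windows lie 249 bases apart, and the only match in either is GGAATG, read on the other strand, in the second. The first *Dst* window holds 4 GGGCGG matches and has 70.3% G and C, while the window 148665 bases further on holds no match at 46.0% G and C. All *Dst* and *Lamb3* windows shown lie inside the annotated genes, which begin at bases 33907888 and 193294353 of chromosome 1. Which start the counted *Dst* molecules came from was not tested. Of all 32851 windows of the table, 35.7% hold GGGCGG, 16.6% GCCNNNGGC, 14.7% GGAATG, 13.6% TATAAA and 7.81% TGANTCA. Among the 11 windows of the members the counts were 6 for GGGCGG, 3 for GCCNNNGGC, 2 for GGAATG, and 1 each for TATAAA and TGANTCA. A match is a run of letters, not a bound site.

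Wells with at least 2000 UMIs (unique molecular identifiers, 1 for each captured RNA molecule) on genes were kept as cells. There were 35 and 58 such cells in the Tom+ libraries and 20 and 48 in the Tom− libraries, 161 of 384 wells, with 81630 to 305407 UMIs per library and medians of 3225 to 4524.5 per cell. Each cell was then thinned at random to 2000 UMIs for all levels and shares per cell, and was called *Krt10*-positive at 6 or more *Krt10* UMIs and *Krt10*-low at 0 to 5. This made 71.4% and 63.8% of Tom+ cells positive and 15% and 6.25% of Tom− cells, so each Tom− library gave 3 positive cells. Of the 161 cells, 157 had at least 3 of 6 basal keratinocyte markers. *Itga6*, *Itgb4* and *Col17a1* are among these 6, so that count is not independent of the members. At least 3 of 6 spinous keratinocyte markers, *Krt10* among them, were seen in 112 cells, including all 68 *Krt10*-positive ones. Endothelial, fibroblast and melanocyte markers summed to at most 0.286 UMIs per 10000 in any class of any library. The sums reached 2.91 for T cell markers, 1.15 for Langerhans cell, 3.91 for sebaceous gland and 3.55 for bulge markers, and 3 cells had at least 3 T cell and 2 at least 3 Langerhans cell markers. Infundibulum and upper follicle markers were present, at 6.30 to 14.0 UMIs per 10000 in *Krt10*-low cells and 2.35 to 19.7 in positive cells over the libraries. Of these markers *Krt79* was at 0 in 2 libraries. At least 3 of the 7 markers were seen in 17 of the 161 cells, 6 of them *Krt10*-positive. Tom+ replicate 2 held 9 of the 17. The study removed infundibulum cells from its merged data, while here such cells were left out only in an alternative. A reporter UMI was seen in 16 and 29 Tom+ cells and in 0 and 3 Tom− cells.

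All 10 genes were detected, over a range of about 2 orders of magnitude. *Col17a1* was the highest, with 1365 UMIs in the kept cells, followed by *Dst* with 394, *Itga6* with 371, *Plec* with 222, *Itgb4* with 143, *Lamb3* with 127, *Itgb1* with 78, *Itga3* with 71, *Cd151* with 36 and *Itga2* with 14. At 2000 UMIs per cell, 88.2% of cells had a *Col17a1* UMI (95% Clopper-Pearson interval 82.2 to 92.7%). *Itga6* was seen in 59.6% (51.6 to 67.3%) and *Dst* in 59.0% (51.0 to 66.7%), so neither of these could be ranked above the other. *Plec* followed at 37.9%, *Itgb4* at 29.8%, *Lamb3* at 26.7%, *Itgb1* at 21.1% and *Itga3* at 18.6%. The intervals of neighbours from *Plec* to *Itga3* overlapped, as did those of *Cd151* (6.21%, 3.02 to 11.1%) and *Itga2* (2.48%, 0.681 to 6.24%). These intervals cover counting error only. At full depth the shares rose to 96.3% for *Col17a1*, 78.3% for *Itga6*, 78.9% for *Dst* and 16.8% for *Cd151*, so absence of a UMI in a single cell does not show absence of the transcript.

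In the sums of cells by library and class, *Col17a1*, *Lamb3*, *Itga3*, *Itgb1* and *Itga6* were lower in *Krt10*-positive than in *Krt10*-low cells in all 4 libraries. For *Dst*, *Plec* and *Itgb4* the direction differed between libraries. In each Tom− library *Itga3* had 0 UMIs and *Itgb1* 1 UMI in the 3 positive cells. How many of all genes were lower in all 4 libraries, or had classes that did not overlap, was not counted. These directions are therefore descriptions. In a test over all genes, 2 members passed, *Col17a1* and *Lamb3*, both lower in positive cells. The values of each gene follow by role, as UMIs per 10000 gene UMIs of the summed cells.

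**Figure D1:**
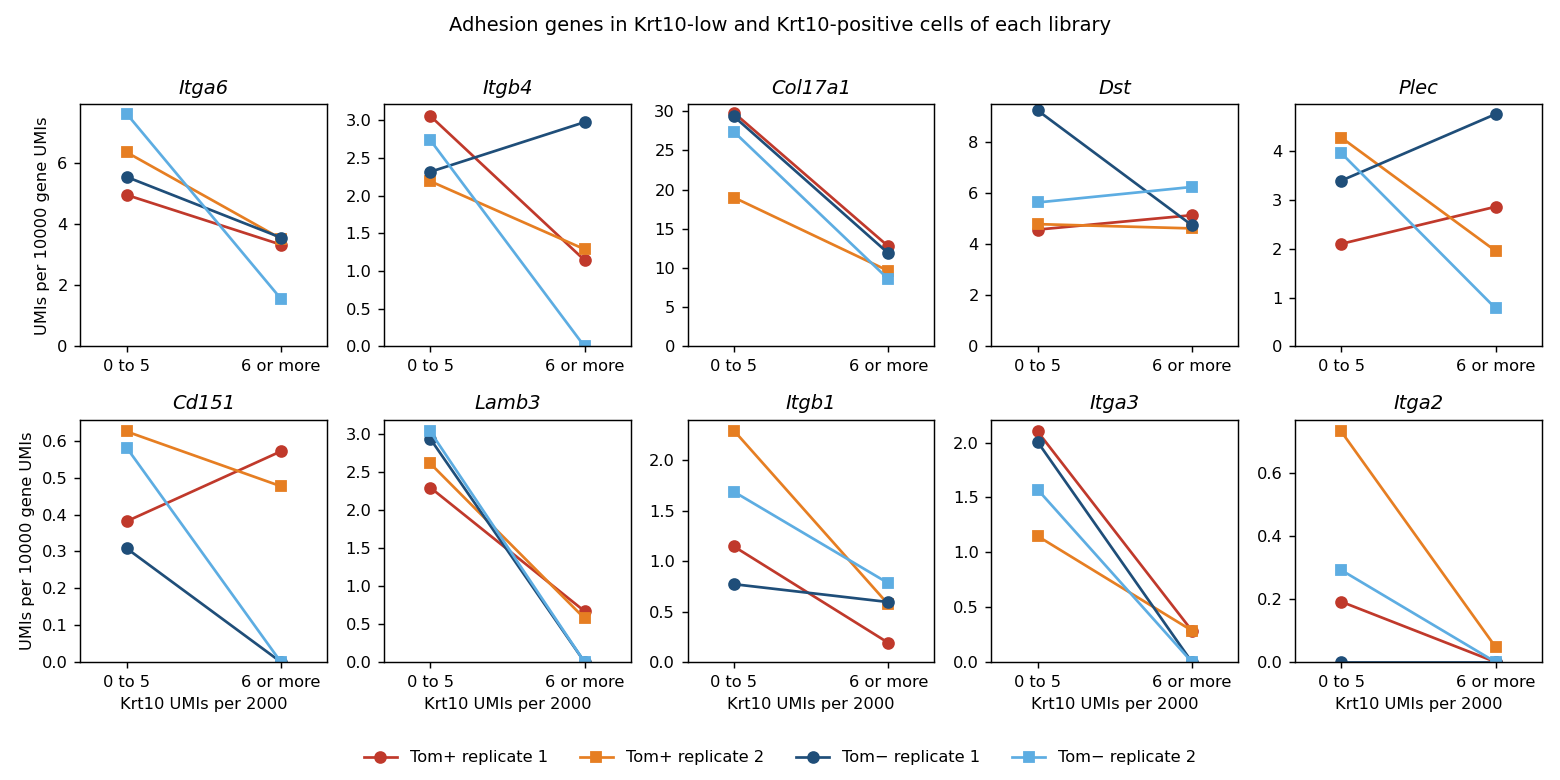
UMIs per 10000 gene UMIs of each adhesion gene in the summed *Krt10*-low (0 to 5 *Krt10* UMIs per 2000) and *Krt10*-positive (6 or more) cells, 1 line per library, each panel on its own axis from 0. *Col17a1*, *Lamb3* and *Itga3* fall in all 4 libraries, while *Dst* stays between 4.58 and 6.25 except for 9.26 in *Krt10*-low cells of Tom− replicate 1.

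Among the parts of the α6β4 complex, *Itga6* was 4.96 in *Krt10*-low and 3.34 in positive cells of Tom+ replicate 1, and 6.36 and 3.53 in Tom+ replicate 2. In Tom− replicate 1 it was 5.55 and 3.57, and in Tom− replicate 2, where the positive cells gave only 2 UMIs, 7.63 and 1.56. Positive cells were lower in every library, and the lowest *Krt10*-low value lay above the highest positive one. In thinned cells of Tom+ replicate 1, by contrast, the mean was 0.8 UMIs per 2000 in *Krt10*-low and 0.88 in positive cells. All cells had been sorted on ITGA6 protein, so cells that had lost it were not sampled. Its partner *Itgb4* went from 3.05 to 1.14 in Tom+ replicate 1, from 2.19 to 1.29 in Tom+ replicate 2, from 2.31 to 2.97 in Tom− replicate 1 and from 2.74 to 0 in Tom− replicate 2. The libraries disagreed on its direction, and the 2 Tom− values rest on 5 and 0 UMIs in 3 positive cells each. *Cd151*, the tetraspanin that associates with laminin-binding integrins, gave 20 UMIs in all *Krt10*-low and 16 in all positive cells, with positive cells at 0.572 and 0.477 in Tom+ and at 0 in both Tom− libraries.

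*Col17a1*, the transmembrane collagen that anchors the hemidesmosome, fell from 29.8 to 12.8 in Tom+ replicate 1 and from 19.0 to 9.64 in Tom+ replicate 2. In the Tom− libraries it went from 29.3 to 11.9 and from 27.4 to 8.60. The classes did not overlap, and positive cells kept 41.4% ± 7.97 (SD, n = 4 libraries) of the *Krt10*-low level, with library values from 31.4 to 50.8%. *Dst*, the linker to keratin filaments, was 4.58 and 5.15 in Tom+ replicate 1, 4.80 and 4.63 in Tom+ replicate 2, 9.26 and 4.76 in Tom− replicate 1 and 5.65 and 6.25 in Tom− replicate 2. It was lower in positive cells of 2 libraries and higher in the other 2, so the classes overlapped. *Plec*, the second keratin linker, was likewise divided. It stood at 136% and 45.8% of the *Krt10*-low level in the Tom+ libraries and at 140% and 19.8% in the Tom− libraries. The 2 Tom− values rest on 8 and 1 *Plec* UMIs in 3 positive cells each, and those of *Dst* on 8 and 8.

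*Lamb3*, the laminin-332 chain that the same cells secrete, was 2.29 in *Krt10*-low and 0.667 in positive cells of Tom+ replicate 1, and 2.61 and 0.573 in Tom+ replicate 2. In the Tom− libraries the *Krt10*-low cells had 2.93 and 3.03, and the 6 positive cells had no UMI, which allows a share of cells with a UMI of up to 50.0%. The classes did not overlap, and positive cells kept 12.8% ± 15 (SD, n = 4). Of the β1 receptors, *Itga3* behaved alike, at 2.10 and 0.286 in Tom+ replicate 1, 1.15 and 0.286 in Tom+ replicate 2, 2.01 and 0 in Tom− replicate 1 and 1.57 and 0 in Tom− replicate 2. Its positive cells held 9 UMIs in all, in 5 of 68 cells, against 62 UMIs in 37 of 93 *Krt10*-low cells. *Itgb1* was lower in positive cells of each library, keeping 16.6% and 25.0% in Tom+ and 77.1% and 46.3% in Tom−, and its 2 Tom− values rest on 1 UMI each. *Itga2* gave 13 UMIs in *Krt10*-low and 1 in positive cells, too few to compare.

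The class difference was tested with edgeR's quasi-likelihood test on the 8 sums, with the library as a block and Benjamini-Hochberg adjustment over all 1206 genes that passed its filter on low counts. Of those genes 6.72% were called and 2.74% were called lower in positive cells, and of the members 6 of 10 passed the filter. *Krt10*, which sets the classes, was not taken out beforehand, and a call of *Krt10* itself is no result. *Col17a1* fell by 1.25 on the log2 scale (SE 0.188, adjusted p = 0.000349). This was close to *Krt5* (fell by 1.09, SE 0.146) and less than *Krt14* (fell by 3.30, SE 0.405), 2 keratins of the basal layer. *Krt15*, another keratin read here, did not share this fall. Positive cells kept 111% ± 39.6 (SD, n = 4 libraries) of its *Krt10*-low level, from 80.9 to 167%, and were lower in 2 of 4 libraries. *Lamb3* fell by 2.30 (SE 0.506, adjusted p = 0.00807). *Itga6*, at -0.90 (SE 0.299, adjusted p = 0.0911), *Itgb4*, at -0.94 (SE 0.444, adjusted p = 0.281), *Plec*, at -0.47 (SE 0.382, adjusted p = 0.637), and *Dst*, at -0.15 (SE 0.273, adjusted p = 0.850), did not pass. A miss does not show that these levels were unchanged. The median over the 6 members was -0.92, against -0.02 over all genes tested. Because a gene could pass the filter through its *Krt10*-low sums alone, neither this median nor the count is evidence about the 10 genes together.

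*Itga3*, *Itgb1*, *Cd151* and *Itga2* stood below that filter. The filter depends on the thinning draw, which sets the classes, and with 10 other draws *Itga3* was tested and called lower in all 10 and *Itgb1* was called in 3 of the 4 that tested it. With a filter set after this was seen, at least 30 UMIs over all sums, 3773 genes were tested in the same edgeR fit, 2.01% of them were called lower, and 9 members were tested. *Itga3* then fell by 2.71 (SE 0.689, adjusted p = 0.00416), and over the 15 alternatives in which it was tested its adjusted p ranged from 7.43e-05 to 0.132. *Itga6* passed there at -1.05 (adjusted p = 0.0323, range over its 30 alternatives 0.0323 to 0.774), and *Itgb1*, at -1.95 (SE 0.653, adjusted p = 0.0730), and *Cd151*, at -0.53 (SE 0.930, adjusted p = 0.928), did not. *Col17a1* was called in 29 of 30 alternatives and *Lamb3* in 25 of the 27 that tested it. Within the Tom+ libraries alone *Col17a1* fell by 1.12 (adjusted p = 0.0164) and *Lamb3*, at -2.03, missed the threshold (adjusted p = 0.0707), and within the Tom− libraries alone, with 6 positive cells, neither passed (adjusted p = 0.0754 and 0.134).

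**Figure D2:**
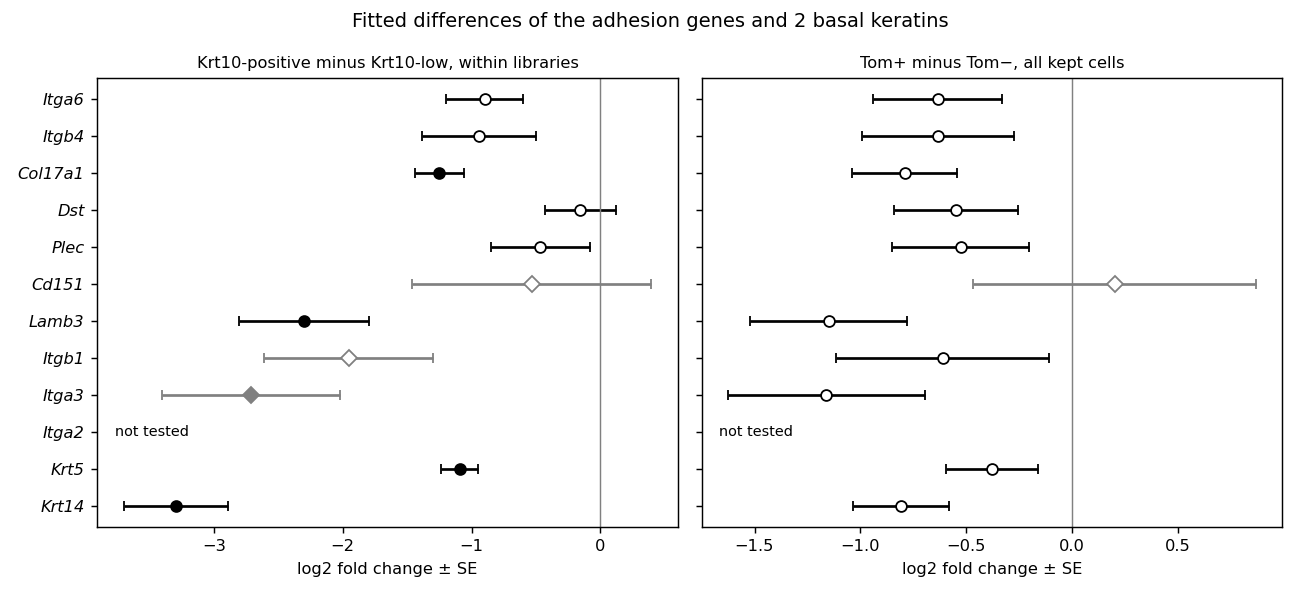
Fitted log2 fold changes with their SE (bars) for the adhesion genes and *Krt5* and *Krt14*, left for *Krt10*-positive minus *Krt10*-low cells within libraries and right for Tom+ minus Tom− libraries. Filled symbols have an adjusted p under 0.05, and grey diamonds come from the filter of at least 30 UMIs for genes below the first filter. All members drawn on the left lie below 0, from -0.15 for *Dst* to -2.71 for *Itga3*.

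No difference between members passed a test. In each library positive cells kept less of their *Col17a1* than of their *Dst*, by 51.3 ± 30.5 percentage points (SD, n = 4), and less of their *Lamb3* than of their *Col17a1*, by 28.6 ± 11.1 points. *Lamb3* was also kept less than *Itga6* and *Plec* in 4 of 4 libraries. In Tom− replicate 2 that direction rests on 0 *Lamb3* UMIs against 2 of *Itga6* and 1 of *Plec* in 3 positive cells. *Itga6* and *Col17a1* differed by 10.4 ± 16.9 points with the libraries divided 3 to 1. An exact permutation of signs, two-sided, gave p = 0.125 for each of the 5 pairs of 15 with 1 direction in all libraries (Benjamini-Hochberg 0.375), the smallest p that 4 libraries allow, so no pair could reach 0.05.

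To see which genes declined first, cells of all libraries were placed in 4 steps by *Krt10*, with no UMI (56 cells), 1 to 5 UMIs (37 cells), and positive cells split at their median into 6 to 13 UMIs (34 cells) and 14 or more (34 cells). Cells of the first step are called cells without *Krt10* here, which means no UMI after thinning and not absence of the transcript. At full depth 13 of these 56 cells had a *Krt10* UMI, among them 6 of the 10 Tom+ cells. Between the first 2 steps the intervals of every member met except those of *Lamb3*. Intervals over the steps cover counting error only. *Col17a1* went from 5.64 UMIs per 2000 (95% Poisson interval 5.04 to 6.30) to 4.78 (4.1 to 5.54), then to 3.35 (2.77 to 4.03) and 1.71 (1.3 to 2.21), with intervals that no longer met from the second step to the fourth. At 14 or more *Krt10* UMIs it kept 30.2% of its first level. *Itga6* went from 1.39 to 1.35, 0.941 and 0.794 and kept 57.0%, and *Itgb4* from 0.643 to 0.378, 0.353 and 0.176 and kept 27.5%. The first and last intervals of *Itga6* met at 1.10 to 1.74 against 0.523 to 1.16, and those of *Itgb4* did not meet (0.450 to 0.890 against 0.0648 to 0.384).

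*Dst* went from 1.45 to 1.11, 1.29 and 1.18, with intervals that all met, or 81.3% at the last step. That value was 62.0% at full depth and 58.7% with libraries weighted equally. *Plec* went from 0.768 to 0.946, 0.324 and 0.500. *Lamb3* went from 0.786 to 0.324, 0.235 and 0.0588 and kept 7.49%, and *Itga3* from 0.482 to 0.243, 0.206 and 0.0294. The early drop of *Lamb3*, to 41.3% at 1 to 5 *Krt10* UMIs, depended on the thinning draw, since 10 other draws gave 79.8 to 155%. Cells with 1 to 5 *Krt10* UMIs were tested against those with none, within libraries, on unthinned counts with edgeR. Of the 5 members tested 0 passed. Of all 615 genes tested 0.488% did, all higher, with 36 at an unadjusted p under 0.05. DESeq2 and limma-voom gave 1 and 3 calls. *Krt10*, which sets these steps, was not taken out of the genes tested, and a call of *Krt10* itself is no result. The log2 differences were -0.10 (SE 0.191) for *Col17a1*, 0.12 (SE 0.325) for *Itga6*, -0.40 (SE 0.465) for *Itgb4*, -0.29 (SE 0.352) for *Dst* and 0.05 (SE 0.498) for *Plec*. *Lamb3* and the β1 integrins fell below its filter. At this depth no adhesion gene could be said to be lost before *Krt10* reached 6 UMIs.

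**Figure D3:**
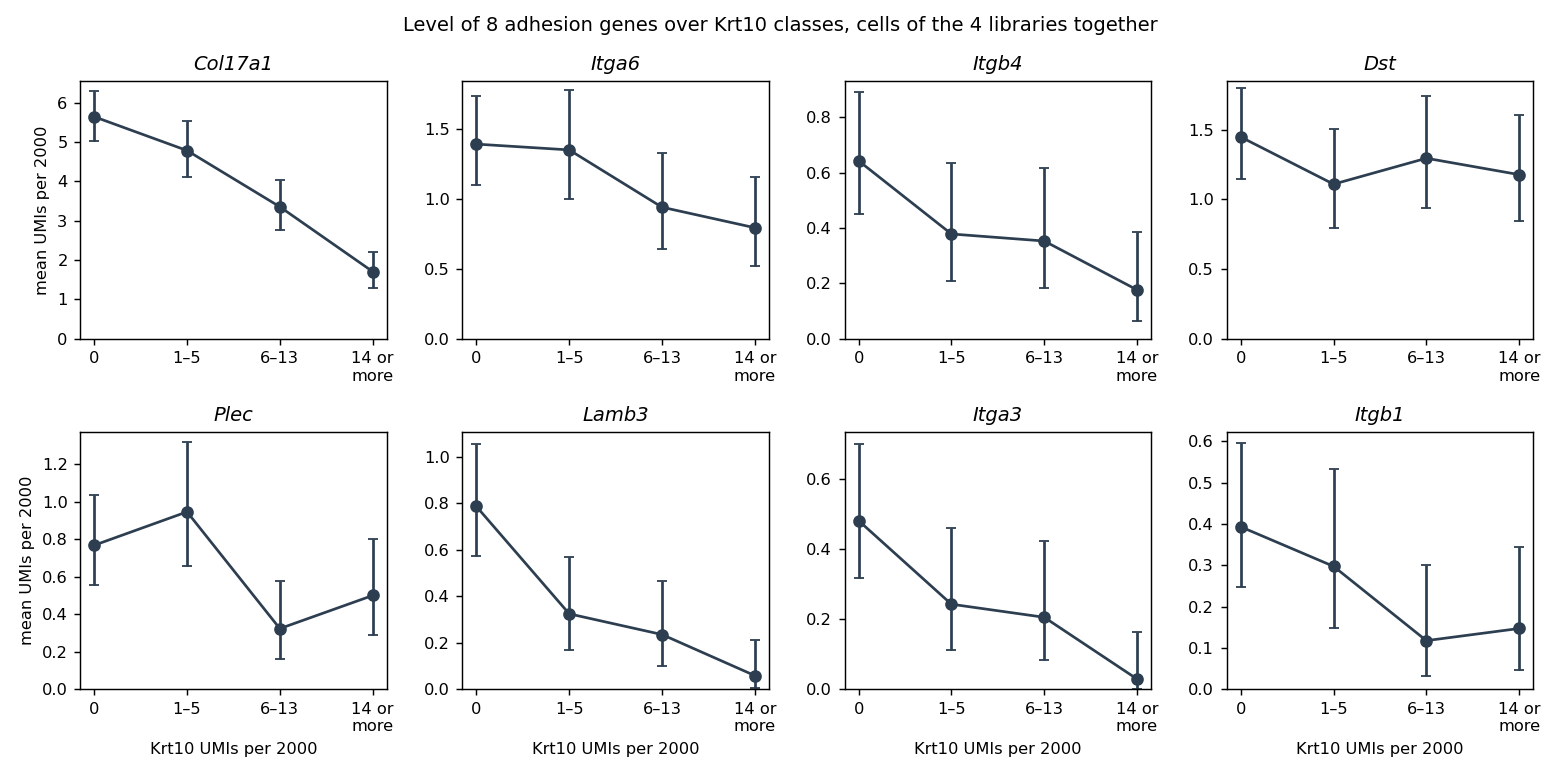
Mean UMIs per 2000 of 8 adhesion genes in cells with 0, 1 to 5, 6 to 13 and 14 or more *Krt10* UMIs, all libraries together, with exact 95% Poisson intervals that cover counting error only. *Col17a1* falls from 5.64 to 1.71 and *Lamb3* from 0.786 to 0.0588, while *Dst* stays between 1.11 and 1.45.

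The steps are not evenly filled by the libraries. Of the 56 cells with no *Krt10* UMI after thinning, 37 came from Tom− replicate 2, and 62 of the 68 positive cells were Tom+. Within Tom+ alone *Col17a1* went from 5.80 UMIs per 2000 without *Krt10* to 4.62, 3.33 and 1.78. Within Tom− it went from 5.61 to 5, 3.5 and 0.5, the last over 2 cells. Of the Tom+ cells, 8 of the 10 without *Krt10* came from replicate 1, and 19 of the 21 with 1 to 5 UMIs from replicate 2. The first 2 Tom+ steps of any gene therefore mostly set 1 replicate against the other. *Col17a1* in *Krt10*-low cells was 6.9 UMIs per 2000 in Tom+ replicate 1 and 4.10 in Tom+ replicate 2. *Itga6* was 0.7, 1.43, 1.0 and 0.812 over the Tom+ steps, 116% of its first level at the last (60.8% at full depth), and 1.54, 1.25, 0.5 and 0.5 over the Tom− steps. *Dst* was 0.600 in Tom+ cells without *Krt10* and 1.22 at the last Tom+ step, 203% of the first (116% at full depth), with intervals that overlapped (0.220 to 1.31 and 0.867 to 1.67). In Tom− it went from 1.63 to 1.12, 2.5 and 0.5, the last steps being over 4 and 2 cells.

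Single cells carried several members at once. A cell without *Krt10* showed 4.04 ± 1.28 of the 10 genes (mean ± SD over 56 cells) and a cell with 1 to 5 *Krt10* UMIs 4.08 ± 1.42 (37 cells), against 2.74 ± 1.52 in positive cells (68 cells). By library, *Krt10*-low cells averaged 4.00, 4.19, 3.88 and 4.07 genes (Tom+ replicates 1 and 2, then Tom− replicates 1 and 2) and positive cells 2.60, 2.84, 3.33 and 2.00. The averages of the classes did not overlap. No *Krt10*-low cell lacked all 10 genes and 3 of 68 positive cells did, and at full depth every one of the 161 cells had at least 1 UMI of a member.

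**Figure D4:**
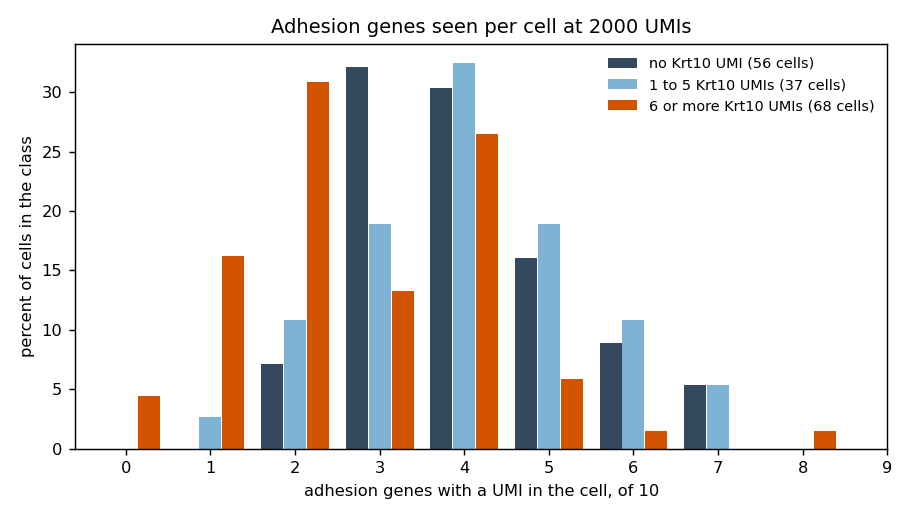
Number of the 10 adhesion genes with a UMI in a cell thinned to 2000 UMIs, as percent of the cells in each *Krt10* class. Positive cells (68) peak at 2 genes with 30.9% of cells, cells without *Krt10* (56) at 3 genes with 32.1% and cells with 1 to 5 *Krt10* UMIs (37) at 4 genes with 32.4%.

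Adhesion and *Krt10* transcripts were found together in many cells. Of the 68 *Krt10*-positive cells, 52 had a *Col17a1* UMI at 2000 UMIs, 41 a *Dst* UMI, 33 an *Itga6* UMI and 7 a *Lamb3* UMI. *Itga6* and its partner *Itgb4* shared 68 cells at full depth, with *Itga6* alone in 58 and *Itgb4* alone in 11, and *Itga3* and *Itgb1* shared 23, with 19 and 25 alone. Positive Tom+ cells that still had a *Krt14* UMI (39 cells) carried more adhesion UMIs than those without (23 cells), 7.10 (6.29 to 7.99) against 3.52 (2.80 to 4.38) per 2000 for the 10 genes together. For *Col17a1* the levels were 3.13 (2.60 to 3.74) and 1.52 (1.06 to 2.12), and for *Itga6* 1.15 (0.842 to 1.54) and 0.478 (0.239 to 0.856). *Lamb3* and *Itga3* were seen in 7 and 5 of the 39 cells with *Krt14* and in 0 of the 23 without, which allows a share of up to 13.0%. In both Tom+ libraries the cells with *Krt14* had the higher sum, at 8.69 against 4.00 and at 6.31 against 3. *Dst* was less far apart, at 1.31 (0.974 to 1.72) and 0.957 (0.599 to 1.45), and its intervals overlapped. The ranges in brackets are 95% Poisson intervals of the pooled UMIs and cover counting error only, not the spread between cells. That spread was wide, with 5.77 ± 5.03 UMIs of the 10 genes per 2000 (mean ± SD) over the 62 positive Tom+ cells. No test was made between these cells, since cells of 1 library are not replicates.

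Among all kept cells Tom+ libraries were below Tom− libraries for *Col17a1* (18.4 and 12.6 against 25.7 and 26.1 UMIs per 10000), *Lamb3* (1.21 and 1.21 against 2.33 and 2.82) and *Itga3* (0.890 and 0.557 against 1.59 and 1.46), and for these the sorts did not overlap. *Itga6* was 3.88 and 4.42 against 5.15 and 7.21, *Itgb4* 1.78 and 1.57 against 2.45 and 2.55, *Plec* 2.61 and 2.68 against 3.68 and 3.74, and *Dst* 4.96 and 4.68 against 8.33 and 5.69, each again without overlap. *Itgb1*, at 0.509 and 1.11 against 0.735 and 1.63, overlapped, as did *Cd151*. The share of all genes whose sorts do not overlap was not counted. The separation is therefore a description and no result about the members. Within each run, that is the libraries that share a run tag, the Tom+ library was the lower one for all 8 members tested. It had 51.9% and 43.0% of the Tom− level for *Lamb3*, 71.7% and 48.2% for *Col17a1* and 59.5% and 82.3% for *Dst*. The share of all tested genes that were lower in both runs was not counted either. The members were read in the same 4 libraries, so their directions are not independent of each other.

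In the edgeR test of 3070 genes, 0 of the 8 members tested passed, where 1.24% of all genes did, 302 of them being at an unadjusted p under 0.05 and 30 and 31 called by DESeq2 and limma-voom, with no member among the calls of either. The fitted log2 differences were -0.79 (SE 0.249, adjusted p = 0.161) for *Col17a1*, -1.15 (SE 0.372, adjusted p = 0.176) for *Lamb3* and -1.16 (SE 0.464, adjusted p = 0.350) for *Itga3*. The other 5 lay between -0.53 and -0.64 with adjusted p of 0.508 to 0.831. With 2 libraries against 2, a permutation test could not go below 0.333. Among *Krt10*-low cells only, the differences were *Col17a1* at -0.29 (SE 0.239), *Itga6* at -0.28 (SE 0.348), *Lamb3* at -0.33 (SE 0.430) and *Dst* at -0.67 (SE 0.360), beside -0.55 for *Dst* in all cells, and 0 of 8 members passed, against 0.303% of 1318 genes, with 72 genes at an unadjusted p under 0.05 and 2 and 4 calls by DESeq2 and limma-voom. Whether the sort difference of any gene is smaller among *Krt10*-low cells than among all cells was not tested. The class effect itself did not differ detectably between the sorts, with 0 of 8 members past the edgeR interaction test (0.262% of 1905 genes, 109 at an unadjusted p under 0.05, 0 and 2 by DESeq2 and limma-voom), and *Col17a1* at 0.70 (SE 0.420) beside a median of 0.28 over all genes tested.

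The wider adhesion machinery was read from 4 lists. Of 21 laminins and other matrix genes of the basement membrane, 20 had a UMI and 2 could be tested between *Krt10* classes. None of them passed the threshold, where 6.72% of all 1206 genes tested did. *Agrn*, the heparan sulfate proteoglycan agrin, was closest, at -1.68 (SE 0.496, adjusted p = 0.0536). *Col7a1*, the collagen of the anchoring fibrils below the hemidesmosome, had 65 UMIs, and positive cells of each library were lower, at 0.667 and 0.334 in Tom+ and 0 in both Tom− libraries. Of 14 other integrins, 10 had a UMI and none could be tested between classes, *Itgav* leading with 77 UMIs, then *Itgb5* with 21 and *Itgb6* with 6.

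Of 13 tetraspanins and other matrix receptors, 10 were tested between classes, 1 was higher and 0 lower. Of all 1206 genes tested, 48 were higher and 33 lower, so the counts of these lists are no result about them. The higher receptor was *Lgals3*, galectin-3, a carbohydrate-binding protein of the cell surface and matrix. It rose by 1.21 (SE 0.250, adjusted p = 0.0052) in positive cells and by 1.18 (SE 0.290, adjusted p = 0.0469) in Tom+ libraries. The first was kept in 24 of 30 alternatives. The second was kept in 6 of 15 and was lost when any 1 library was left out. Of all 3070 genes tested between the sorts, 26 were higher in Tom+. The tetraspanin *Cd9* had 1721 UMIs and the syndecan *Sdc4* had 1126, and neither passed, with *Sdc4* at 13.6 to 16.1 UMIs per 10000 in *Krt10*-low and 13.1 to 16.1 in positive cells. Of 27 integrin adaptors and actin linkers, 5 were tested and 0 passed in either direction, among them *Actn4* with 309 UMIs, *Tns4* with 276 and *Flna* with 135. The list medians between classes were 0.19 for the receptors and -0.36 for the adaptors, beside -0.02 over all genes tested.

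Genes outside the lists were ranked by Pearson's r of their log2 profile over the 8 sums of library and *Krt10* class with the mean profile of the 6 members tested, among 1029 genes with at least 100 UMIs. The 10 most alike were *Ier3* (r = 0.982), *Bhlhe40* (0.940), *9530053A07Rik* (0.933), *Fth1* (0.918), *Cxcl14* (0.904), *Sema3c* (0.898), *Cyr61* (0.884), *Tgfbi* (0.880), *S100a10* (0.866) and *Tnfrsf12a* (0.861). These values describe 8 points that share libraries and carry no test. Of the members, each set against the mean of the other tested ones, *Itga6* (0.848), *Itga3* (0.841), *Lamb3* (0.821) and *Col17a1* (0.800) were most alike, and *Dst* (0.194) and *Cd151* (-0.11) least. Against the profile of the 6 members *Krt5* was at 0.811, *Krt14* at 0.731, *Krt15* at 0.300 and *Krt10* at -0.858. Such likeness was therefore not particular to adhesion genes.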

How the data were processed

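The deposited values are raw counts of UMIs for each gene in each well, made by the authors from 5′ STRT libraries on Fluidigm C1 chips, and their processing notes name the builds mm10 and GRCm38. The aligner and annotation are not given in the sources used here. Wells with at least 2000 gene UMIs (2024 to 11578) were thinned without replacement to 2000 UMIs with NumPy 2.4.6 (seed 1), and a cut-off of 6 *Krt10* UMIs was used, an approximation, since the study set its own on normalized log counts of merged datasets. No doublet caller was run, and removal of the top 5% of wells is among the alternatives. Unthinned counts summed per library, or per library and class, went into edgeR 4.0.16 in R 4.3.3, with its quasi-likelihood test, TMM scaling, filterByExpr and a Benjamini-Hochberg threshold of 0.05, after a test on simulated data. DESeq2 1.42.0 and limma 3.58.1 served as alternatives. The 2 libraries of each sort differed by more than sampling noise. Named were all 10 members, list genes past the threshold or among the 3 highest of their list, 5 keratins and the 10 most alike genes, and 1 list gene is not reported here. The members, lists and tests were chosen with earlier results of these data known. Same-numbered libraries share a run tag, but the labels do not say that this marks a mouse. Promoter windows and positions are RefSeq, GRCm38.p6.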

Additional observations from a re-analysis of the deposited data

How the results depend on the processing

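Low counts and few positive Tom− cells limit these results, and the causes of the shifts below were not tested. In no alternative did a called member change sign. Of the alternatives, *Col17a1* between *Krt10* classes lost its call only in the Tom− libraries alone, and *Lamb3* in the Tom+ and in the Tom− libraries alone. It could not be tested with at least 5000 UMIs, thinned sums or positive cells against cells without *Krt10*.

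Genes called between classes (81) became 30 with at least 5000 UMIs, 45 with thinned sums, 135 with the added filter of 30 UMIs, 46 for positive cells against none, 52 in Tom+ alone, 15 in Tom− alone and 98 to 132 over 10 other draws, all above the draw reported. Members called (2) became 1 with at least 5000 UMIs, thinned sums, positive against none or Tom+ alone, 0 in Tom− alone, 4 with the added filter, 2 to 4 without 1 library each (4, with *Itga3* and *Itgb1*, without Tom− replicate 1) and 3 to 6, mean 3.8, over the draws. Without the library as a block, 102 genes and 3 members passed, *Itga6* being the third.

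Between the sorts (38 genes) the counts were 8 with at least 5000 UMIs, 24 with thinned sums, 23 with the added filter and 27 to 65 without 1 library each, the highest without Tom− replicate 1. Same-numbered libraries of the sorts correlated by 0.131 over genes, with 2 pairs only, so the numbers were not taken to pair them, and with the replicate number as a block 116 genes and 1 member, *Col17a1*, passed. Among *Krt10*-low cells the block left 0 genes. There (4 genes) the counts were 1 with at least 1000 UMIs, 0 with at least 5000, thinned sums or a *Krt10* cut at 3, 20 with a cut at 12, 10 without cells of other types, 2 with no filter, 2 by DESeq2, 8 with the added filter, 1 to 3 without 1 library each, and 0 at the lowest and 2.1 on average over the draws. Between 1 to 5 *Krt10* UMIs and none (3 genes) it was 1 with at least 5000 UMIs, the top wells out, no filter, either DESeq2 setting, no block or the lowest draw, 1.3 on average and 1 to 3 without 1 library each. For the interaction (5 genes) it was 0 with at least 1000 or 5000 UMIs, the top wells or other cell types out, the DESeq2 Wald test, thinned sums or a cut at 3, 2 with no filter, DESeq2 size factors, limma-voom or the lowest draw, and 0 to 22 without 1 library each (22 without Tom− replicate 1).

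Estimates that missed the threshold turned as follows. *Dst* between classes was 0.35 with thinned sums and 0.017 in Tom+ alone. *Itgb1* between the sorts ran from -1.36 to 0.30 without 1 library each, *Itga6* among *Krt10*-low cells from -0.52 to 0.081, and *Col17a1* in the interaction was -0.15 with a cut at 3. Between 1 to 5 *Krt10* UMIs and none, *Col17a1* was 0.11 with at least 1000 UMIs, 0.0035 without other cell types, -0.24 to 0.12 without 1 library each and up to 0.21 over the draws. There *Itga6* was -0.054 to 0.20 without 1 library each, and -0.53 at the lowest and -0.23 on average over the draws. *Dst* reached 0.10 over the draws, and *Plec* was -0.023 without other cell types, -0.050 by DESeq2, -0.43 to 0.40 without 1 library each and -0.46 at the lowest draw.

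The 10 members together had 7.28 UMIs per 2000 in Tom+ and 10.6 in Tom− libraries, and 6.42 and 8.79 with at least 5000 UMIs. As percent of the level without *Krt10*, at 1 to 5 UMIs *Col17a1* was 114 with libraries weighted equally and 65.6 at the lowest draw, *Lamb3* 79.8 to 155 (mean 103) over the draws, *Plec* 59.2 at the lowest, and *Itgb4* 114, *Dst* 119 and *Itgb1* 174 at the highest. At 14 or more UMIs the draws gave *Col17a1* up to 48.6, *Itga6* 32.6 and *Itgb1* 0 at the lowest, and *Itga3* 0 at the lowest, highest and mean, and *Plec* was 163 with equal weights.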
